A study of Bos taurus with 28 samples.

Results

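The genes described here are some of those of lipid, retinoid and steroid metabolism in subcutaneous adipose tissue (AT) of dairy cows around calving. They were chosen by the first letters of their symbols, such as ACA, HSD, LPCAT, CYP, AKR, APO, GST or INSIG. ACAT2, CYP1A1, HSD17B12 and PLA2G2A match these letters but are left out by name, so they are in none of the counts below. The rule matched 47 symbols, and 43 of these had at least 3 reads in at least 1 library, out of 18905 genes that met the same minimum and 24616 genes listed. LIPH, AKR1D1, APOH and HMGB4 did not reach it, with 2, 0, 0 and 7 reads over all libraries. The rule takes symbols by their letters, so 5 of the 43 members (ACO1, GPATCH1, GPATCH2, GPATCH4 and HMGN5) are not genes of these pathways and are counted apart. The other members are not all enzymes, since they include INSIG1, INSIG2, OSBPL5, PTGER2 and apolipoproteins. Of the members, AKR1B10 is the one best known as a retinal reductase, and it was close to 0 reads. The values below therefore concern lipid, sterol and conjugation genes far more than retinoid ones.

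Bulk RNA-seq was made from tissue taken surgically at the right flank of healthy multiparous Holstein cows. Samples were taken about 11 days before the expected calving (PreP, 9 libraries), at 6 days (PP1, 10 libraries) and at 13 days after calving (PP2, 9 libraries). The 28 libraries came from 11 cows, of which 8 had all 3 time points. The cows ate a close-up ration before calving and a fresh-cow ration afterwards, no drug or genotype separated the groups, and the incision was shifted slightly each time. Day, diet, calving and the start of lactation changed together and cannot be told apart, and PP1 and PP2 were compared with the same PreP libraries. Total counts per library ran from 15293154 to 22284884. Values below are CPM, which are counts scaled to library size by TMM, and 3 reads in a library stood for 0.129 to 0.201 CPM.

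In adipocytes, fatty acids are stored as triglyceride and released by lipolysis, which rises strongly around calving in dairy cows. Fatty acids that stay in the cell are activated to acyl-CoA, oxidised in mitochondria or built back into glycerolipids, phospholipids and sphingolipids. Sterol synthesis is held in check by the INSIG proteins, which keep the SREBP transcription factors in the endoplasmic reticulum when sterols are plentiful. Glutathione transferases, sulfotransferases and glucuronosyltransferases join small groups to lipid breakdown products, steroids and foreign compounds.

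Several libraries stood apart, and the members' calls that changed without the PP2 library of cow B5090 or the PP1 library of cow B5169 are given both ways. The PP2 library of cow B5090 carried skeletal muscle genes, with a summed level of 8 muscle markers of 11400 CPM, where the next PP2 library had 62.3 CPM. The PP1 library of cow B5169 had the highest PP1 level of 18 of the 36 members with a median of at least 10 reads. Its PP1 level was the highest for 6 of the 7 such members that were lower at PP1 at an unadjusted p under 0.05. Its PreP library had the lowest PreP level for 3 of those 7, namely ACSM1, APOL3 and GSTM3. Of the 6 such members that were higher at PP1, its PP1 library was the lowest for 3 and its PreP library the highest for 2. It also had the lowest summed macrophage markers at PP1, 411 CPM, and the highest at PreP, 664 CPM. Its PreP library had the highest summed adipocyte markers at PreP, 3920 CPM, above every PP1 library (highest 2720), and the highest sum of 6 other retinoid genes, 3280 CPM. The gene RBP4 was in both lists, with a median of 1320 CPM at PreP, so these sums are not separate observations. Whether the PreP and PP1 libraries of this cow were exchanged was not tested, the labels were kept, and an exchange would change the fold changes of all 3 comparisons and the within-cow counts below. The PP2 library of cow B4886 and the PP1 library of cow B5102 were each the lowest of their time point for 12 of the 36.

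Markers of the cell types in the tissue were read beside the members. The summed level of 8 adipocyte markers, most of it RBP4, had a median of 1890 CPM at PreP (range 1110 to 3920), 1230 at PP1 (349 to 2720) and 1060 at PP2 (423 to 2310). That of 8 macrophage markers had a median of 500 CPM at PreP (326 to 664), 1020 at PP1 (411 to 1560) and 623 at PP2 (198 to 783), and 5 of the 8 passed the FDR as higher at PP1 and 1 of 8 at PP2. Of the adipocyte markers, 0 of 8 passed at PP1, and at PP2 FFAR4 was lower and ANGPTL4 higher. Of 6 fibroblast and pericyte markers, LUM and PI16 were higher DEGs at both times. In bulk tissue, fewer cells of a type and less RNA per cell cannot be told apart, and the part of any of these lists in the members' differences was not tested. Of the 8 adipocyte markers, 0 had a median of 0 reads at any time point, and 8 of 9 liver markers had a median of 0 reads at each time point.

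Differences were tested with edgeR's quasi-likelihood test on all genes of a pair of time points, with p-values adjusted by Benjamini-Hochberg (FDR). A differentially expressed gene (DEG) had an FDR under 0.05 and a log2 fold change over 1 in size. At PP2, 4 members (INSIG1, ACSM1, APOL3 and ACAA2) were downregulated DEGs against PreP and 0 of 43 were upregulated. Over all genes tested, 1.95% were downregulated and 3.52% upregulated at PP2. The symbols left out by name bear on this count, since ACAT2, CYP1A1 and HSD17B12 were downregulated at PP2 as well, and with these 3 the count would be 7 of 46 lower and 0 higher. PLA2G2A, the fourth symbol left out, had 4 reads over all libraries and at most 2 in 1 library, so it was not tested and the count says nothing about it. By the FDR alone, ACAD10 was also lower at PP2, which made 5 of 43 lower and 0 higher, where all genes gave 2.51% lower and 3.84% higher. At PP1, 1 of 40 members tested, GSTM3, was a downregulated DEG and 0 were upregulated, against 0.693% and 3.34% of all genes. LPCAT1 passed the FDR as higher at PP1 with a smaller fold change, which made 1 of 40 higher and 1 of 40 lower, where the FDR alone called 4.9% of all genes higher and 1.43% lower. Without the PP1 library of B5169, 7 of 40 were lower and 3 of 40 higher by the FDR, where 8.68% and 9.31% of all genes were.

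At an unadjusted p under 0.05, 14 of 40 members differed at PP1 (6 higher and 8 lower), where 24.6% of all genes did (14.2% higher and 10.4% lower), and 12 of 43 at PP2 (4 higher and 8 lower), where 21.4% did (13.5% higher and 7.84% lower). The 8 lower at PP1 include AKR1B10, which had 4 reads over all libraries, and 7 of the 8 had a median of at least 10 reads. The median log2 fold change of the members was -0.15 at PP1 and -0.07 at PP2, against 0.04 and 0.10 over all genes. Without the 5 members matched by letters alone, the medians were -0.20 over 35 and -0.06 over 38 members. The 7 members that passed the FDR in any comparison came from 5 of the 11 role groups, and all role groups are described next.

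**Figure D1:**
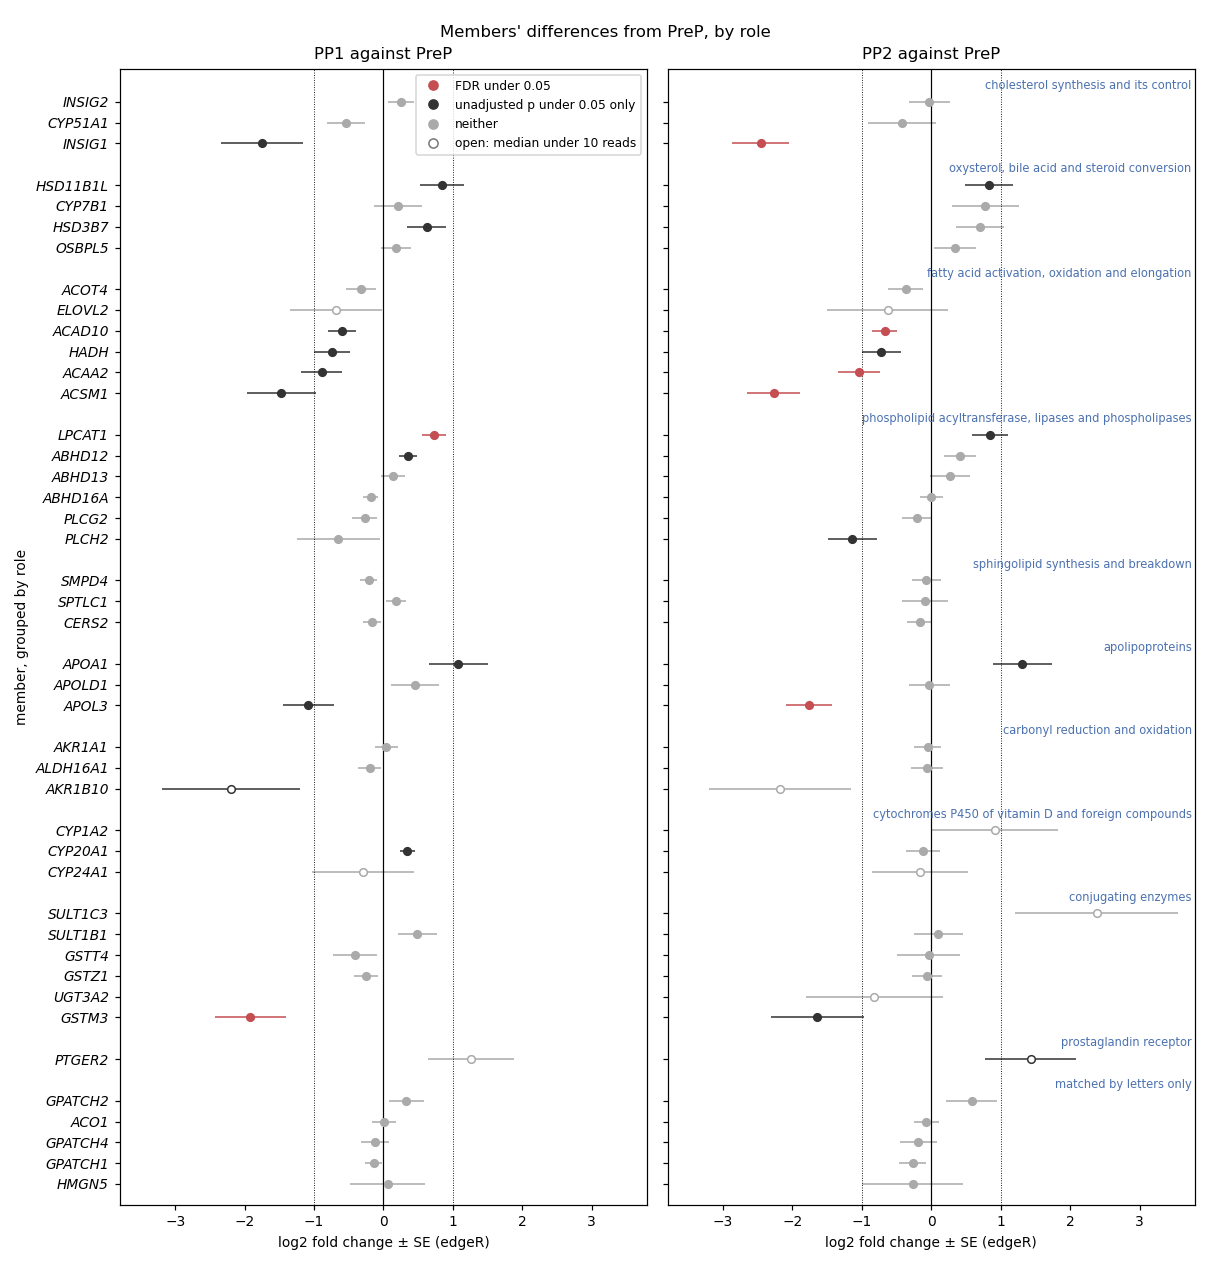
Log2 fold change (edgeR, x axis) with a standard error derived from the F statistic, for each member tested (y axis, grouped by role) at PP1 and PP2 against PreP. Dotted lines are at 1 and -1. All 6 members of the fatty acid group lie left of 0 in both panels, and the 4 members of the oxysterol and steroid group lie right of 0, although none of those 4 passed the FDR. Open symbols are members with a median under 10 reads.

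Among the genes of sterol synthesis and its control, INSIG1 (ENSBTAG00000001592) had the largest fall of the members at PP2. Its level ran from 47.7 to 548 CPM at PreP with a median of 180, from 19.3 to 416 at PP1 with a median of 29.7, and from 17.5 to 74.0 at PP2 with a median of 37.0. Of the 10 PP1 libraries, 9 were below every PreP library and 1, that of cow B5169 at 416 CPM, was as high as the upper PreP libraries. At PP2 the ranges overlapped between 47.7 and 74.0 CPM, and 6 of 9 libraries were below every PreP library. INSIG1 fell by 2.46 on the log2 scale at PP2 (SE 0.417, a 5.5-fold lower level), with an edgeR FDR of 0.00242 and a two-sided exact permutation p of 0.00033. Within cows the change from PreP to PP2 was downward in 8 of 8, from -3.56 to -0.21 with a median of -2.08 on the log2 scale.

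At PP1 the log2 fold change of INSIG1 was -1.75 (SE 0.586) and the FDR was 0.0748, so it missed the threshold, with an exact permutation p of 0.0025. Within cows it was lower in 7 of 8, and cow B5169 was the exception, with a log2 change of 2.28 from 85.4 CPM at PreP to 416 at PP1. Without the PP1 library of that cow, the log2 fold change was -2.87 and the FDR 8.29e-05. Without both of its libraries it was -2.98, with an FDR of 3.11e-05. With all cows counted, DESeq2 gave -1.74 and an adjusted p of 0.0380. It called 4 members as DEGs at PP1 (ACSM1, APOL3, GSTM3 and INSIG1), where it called 5.72% of all genes and edgeR 4.03%. The PP1 call of INSIG1 thus depended on this cow and on the tool, while its PP2 call stood without any cow in 10 of 10 fits, with log2 fold changes from -2.72 to -2.20.

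The other members of this group did not pass the FDR with all libraries. INSIG2, the second INSIG protein, had medians of 12.7 CPM at PreP, 13.7 at PP1 and 12.8 at PP2, with log2 fold changes of 0.25 and -0.03. CYP51A1, the lanosterol demethylase of cholesterol synthesis, had medians of 22.0, 12.5 and 9.93 CPM. Its log2 fold change was -0.54 at PP1 (FDR 0.234) and -0.42 at PP2 (FDR 0.697), and its PP2 libraries spread from 1.72 to 63.2 CPM. At PP1 it was -0.70 (FDR 0.0714) without the PP1 library of B5169 and -0.81 (FDR 0.0173) without both libraries of that cow. The 2 INSIG genes therefore had unlike values at PP2, and the difference between them was not tested.

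**Figure D2:**
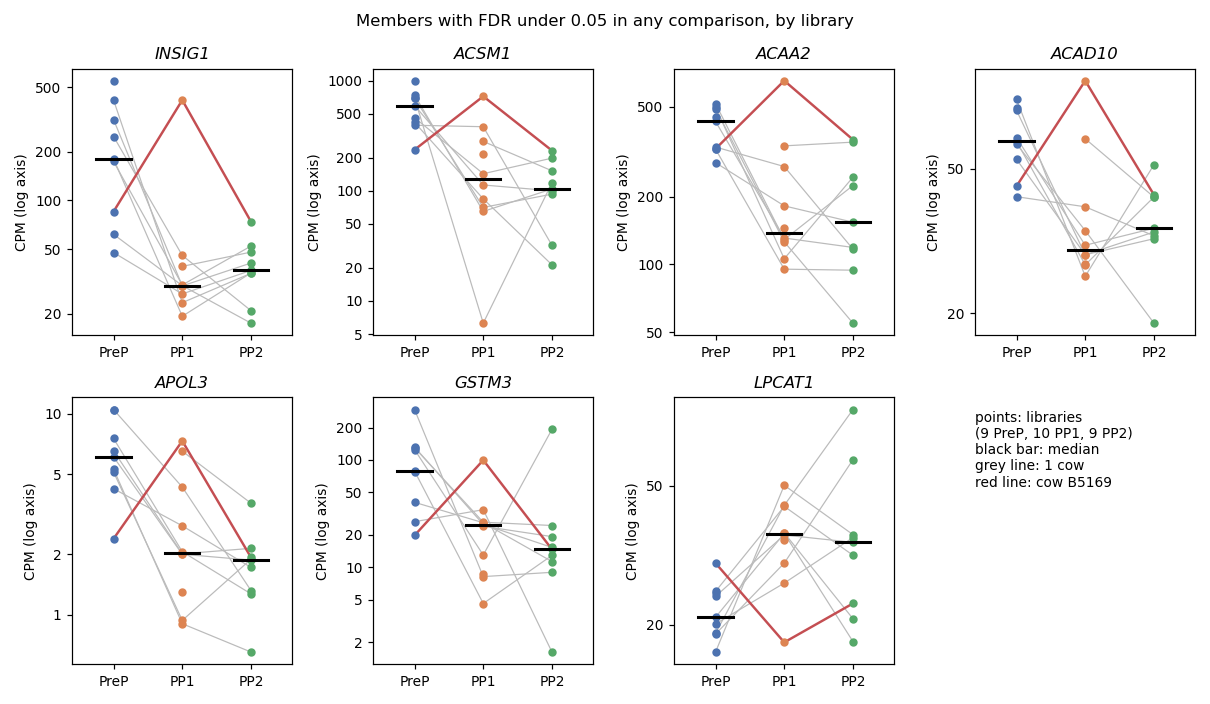
CPM on a log axis (y) in each library at PreP, PP1 and PP2 (x) for the 7 members with an FDR under 0.05 in any comparison, where points are libraries, black bars medians, grey lines cows and the red line cow B5169. In 6 of the 7 panels the PP1 point of B5169 is the highest PP1 value, and in the LPCAT1 panel it is the lowest.

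In the group of fatty acid activation, oxidation and elongation, all 6 members had a negative log2 fold change at both postpartum times. The median over the 6 was -0.72 at PP1 and -0.70 at PP2, beside 0.04 and 0.10 over all genes. At an unadjusted p under 0.05, 4 of 6 were lower at each time, where 10.4% of all genes were at PP1 and 7.84% at PP2. By the FDR, 3 of 6 were lower at PP2 and 0 of 6 at PP1, where 2.51% and 1.43% of all genes were. The PP1 count depended on 1 library and on the tool. Without the PP1 library of B5169, 4 of 6 (ACAA2, ACAD10, ACSM1 and HADH) passed as lower, where 8.68% of all genes did. With DESeq2 on all libraries, ACSM1 and ACAA2 passed as lower (adjusted p 0.0266 and 0.0365).

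ACSM1 (ENSBTAG00000001417), a mitochondrial synthetase that activates medium-chain fatty acids, was among the most abundant members. Its level ran from 236 to 1000 CPM at PreP with a median of 594, from 6.29 to 721 at PP1 with a median of 128, and from 21.3 to 232 at PP2 with a median of 104. All 9 PP2 libraries were below all 9 PreP libraries, with 232 CPM as the highest PP2 value and 236 as the lowest PreP value. It was the only member whose PP2 libraries all lay below PreP, a pattern that 0.156% of all genes tested had. ACSM1 fell by 2.27 on the log2 scale at PP2 (SE 0.380, 4.82-fold lower), with an edgeR FDR of 0.00238 and an exact permutation p of 4.1e-05, the smallest that this design can give in a two-sided test.

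At PP1 the log2 fold change of ACSM1 was -1.47 (SE 0.502, FDR 0.0800), and 7 of 10 libraries were below every PreP library. Cow B5102 had 6.29 CPM at PP1, from 96 reads, between 696 CPM at PreP and 118 CPM at PP2. Cow B5169 went the other way, from 236 CPM at PreP to 721 at PP1. Without the PP1 library of B5169 the log2 fold change was -1.90 and the FDR 0.00685. Reads of ACSM1 can be shared with neighbouring genes of the ACSM family, since the handling of reads with several matches was not stated.

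ACAA2 (ENSBTAG00000002863), the mitochondrial thiolase of the last step of beta-oxidation, ran from 283 to 517 CPM at PreP with a median of 431. At PP1 it ran from 95.3 to 654 CPM with a median of 138, and at PP2 from 54.9 to 358 with a median of 154. At PP1, 8 of 10 libraries were below every PreP library while B5169 was above every one, and at PP2, 7 of 9 were below with the other 2 inside the PreP range. ACAA2 fell by 1.04 on the log2 scale at PP2 (SE 0.300, FDR 0.0420, exact permutation p = 0.00078). The PP2 call was close to the threshold, and it passed the FDR in 2 of 10 fits that left out a cow, with FDRs from 0.0146 to 0.116. At PP1 the log2 fold change was -0.89 (FDR 0.0742), and -1.22 (FDR 0.000816) without the PP1 library of B5169. With DESeq2 on all libraries the adjusted p at PP1 was 0.0365.

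ACAD10 (ENSBTAG00000001164), a member of the acyl-CoA dehydrogenase family, ran from 41.9 to 77.6 CPM at PreP with a median of 59.5. It ran from 25.3 to 87.4 CPM at PP1 with a median of 29.9 and from 18.8 to 51.3 at PP2 with a median of 34.3. At PP2, 7 of 9 libraries were below every PreP library. ACAD10 fell by 0.67 on the log2 scale at PP2 (SE 0.179, FDR 0.0291, exact permutation p = 0.00029), less than the fold change set for a DEG, and it was lower within 8 of 8 cows. With cow as a block the FDR was 0.151 and the log2 fold change -0.69. At PP1 the log2 fold change was -0.60 with an FDR of 0.0792, and B5169 had the highest level, 87.4 CPM, where the next library had 60.5. It was -0.80 (FDR 0.00181) without that library and -0.84 (FDR 0.00119) without both libraries of the cow.

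HADH, which carries out the dehydrogenase step before the thiolase, missed the FDR with all libraries. Its medians in time order were 198, 105 and 112 CPM. The log2 fold change was -0.74 at PP1 (SE 0.264, FDR 0.0925) and -0.72 at PP2 (SE 0.282, FDR 0.136), and 8 of 8 cows were lower at PP2. Without the PP1 library of B5169 it passed at PP1, at -0.89 (FDR 0.0172). ACOT4, a thioesterase that frees acids from CoA, had medians of 14.2, 9.86 and 9.28 CPM and log2 fold changes of -0.33 and -0.37, with FDRs of 0.368 and 0.425. ELOVL2, an elongase of polyunsaturated fatty acids, had a median of 3 reads at each time point, and no difference was detectable at this depth.

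In the group of oxysterol, bile acid and steroid conversion, all 4 members tested had a positive log2 fold change at both times, with a median of 0.42 at PP1 and 0.74 at PP2, and 0 of 4 passed the FDR. Over all genes, 53.4% had a positive value at PP1 and 58.9% at PP2, and 4.9% and 3.84% passed the FDR as higher, so neither count of 4 members is read as set apart from the other genes. HSD11B1L, a relative of the enzyme that regenerates cortisol, ran from 2.21 to 10.3 CPM at PreP with a median of 4.94. It ran from 4.11 to 21.6 CPM at PP1 with a median of 8.82 and from 3.76 to 22.2 at PP2 with a median of 7.10. The groups overlapped over most of their ranges, and 3 libraries at each postpartum time were above every PreP library. The log2 fold change was 0.84 at PP1 (SE 0.315, FDR 0.107, exact permutation p = 0.040) and 0.83 at PP2 (SE 0.352, FDR 0.172, exact permutation p = 0.076). Within cows it was higher in 8 of 8 at each time, by 0.00 to 2.75 on the log2 scale at PP1 and 0.23 to 1.66 at PP2.

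HSD3B7, which acts early in bile acid synthesis, had medians of 44.4, 56.6 and 65.8 CPM, with log2 fold changes of 0.62 (FDR 0.170) and 0.70 (FDR 0.249). CYP7B1, the oxysterol hydroxylase, had medians of 1.34, 1.30 and 2.36 CPM, and its PP2 libraries spread from 0.214 to 6.55 CPM. OSBPL5, a lipid transfer protein of the oxysterol-binding family, had medians of 138, 174 and 137 CPM and log2 fold changes of 0.18 and 0.34, with FDRs of 0.646 and 0.589.

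Among the acyltransferases, lipases and phospholipases, LPCAT1 (ENSBTAG00000000944), which adds an acyl chain to lysophosphatidylcholine, was the only member higher at an FDR under 0.05 with all libraries. It ran from 16.7 to 30.0 CPM at PreP with a median of 21.0, from 17.8 to 50.1 at PP1 with a median of 36.3, and from 17.9 to 82.5 at PP2 with a median of 34.4. At PP1, 7 of 10 libraries were above every PreP library, and the lowest was again B5169, whose PreP library was the highest. At PP2, 6 of 9 were above every PreP library.

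The log2 fold change of LPCAT1 was 0.73 at PP1 (SE 0.168, 1.66-fold, FDR 0.0143, exact permutation p = 0.0018) and 0.84 at PP2 (SE 0.261, FDR 0.0565, exact permutation p = 0.017). With cow as a block, the PP1 FDR was 0.127 at a log2 fold change of 0.69. Without the PP2 library of B5090, the PP2 log2 fold change was 0.94 and the FDR 0.0212. The side of the threshold thus depended on the libraries and on the fit at both times.

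PLCH2, a phospholipase C of phosphoinositides, had medians of 3.19 CPM at PreP, 0.701 at PP1 and 1.61 at PP2. Its log2 fold change at PP2 was -1.14 (SE 0.351, FDR 0.0564), and it was a DEG there with DESeq2, with filterByExpr, and without B5079 or B5169. At PP1 it was -0.65 (FDR 0.533), where the libraries ran from 0.052 to 7.52 CPM and B5169 was again the highest. Without that library it was -1.10 (FDR 0.203). ABHD12, a lysophosphatidylserine lipase, had medians of 92.2, 112 and 110 CPM and log2 fold changes of 0.35 (FDR 0.103) and 0.41 (FDR 0.312). ABHD13, ABHD16A and PLCG2 had log2 fold changes between -0.27 and 0.27 at both times, with FDRs from 0.293 upward.

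No member of the sphingolipid group passed the FDR, and the log2 fold changes lay between -0.21 and 0.18. SMPD4, a neutral sphingomyelinase, ran from 96.5 to 171 CPM at PreP with a median of 126, from 86.8 to 134 at PP1 with a median of 95.2, and from 75.2 to 226 at PP2 with a median of 96.8. At PP1, 6 of 10 libraries were below every PreP library and the others lay inside the PreP range. Its log2 fold change was -0.21 at PP1 (SE 0.121, FDR 0.293, exact permutation p = 0.046) and -0.07 at PP2 (FDR 0.896). CERS2, the ceramide synthase of very long chains, had medians of 183, 164 and 159 CPM, and SPTLC1, a subunit of the enzyme that starts sphingolipid synthesis, had medians of 70.8, 71.6 and 67.0. The PP2 libraries of B4886 and B5064 had the lowest SPTLC1 levels, at 9.17 and 14.9 CPM.

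Of the apolipoprotein symbols, APOL3 (ENSBTAG00000000667), an intracellular apolipoprotein of the L family that interferons induce, ran from 2.39 to 10.5 CPM at PreP with a median of 6.10. It ran from 0.902 to 7.33 CPM at PP1 with a median of 2.04 and from 0.652 to 3.59 at PP2 with a median of 1.87. At PP2, 8 of 9 libraries were below every PreP library. APOL3 fell by 1.76 on the log2 scale at PP2 (SE 0.328, 3.39-fold lower, FDR 0.00449, exact permutation p = 8.2e-05). The lowest PreP library and the highest PP1 library were both from B5169. At PP1 the log2 fold change was -1.08 (FDR 0.0826), and -1.31 (FDR 0.0147) without the PP1 library of that cow. The PP2 value stayed past the FDR without any cow in 10 of 10 fits.

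APOA1, the main protein of high-density lipoprotein, went the other way without passing the FDR, although it was an upregulated DEG at PP2 with DESeq2 and without cow B5169, and at PP1 without the PP1 library of that cow (1.21, FDR 0.0343). Its medians were 28.2 CPM at PreP, 41.2 at PP1 and 76.5 at PP2, with a range of 12.9 to 211 at PP1. The log2 fold change was 1.08 at PP1 (SE 0.420, FDR 0.117) and 1.31 at PP2 (SE 0.425, FDR 0.0679). The exact permutation p was 0.095 at PP1 and 0.066 at PP2. Within cows, 7 of 8 were higher at each time, with B5169 as the exception. APOA1 is made mainly in liver, and the summed liver markers had medians of 2.26, 5.55 and 5.50 CPM, nearly all of it SPP2. SPP2 was itself an upregulated DEG at PP1 (log2 fold change 3.14, FDR 0.0392), and the PP1 library of B5102 had a liver sum of 214 CPM where the next had 16.6. The highest APOA1 level at PP1, 211 CPM, was in the library of another cow, B5090, where the next had 81.0. Whether APOA1 reads came from liver was not tested. APOLD1, an endothelial gene, had medians of 93.3, 88.4 and 81.6 CPM and log2 fold changes of 0.45 and -0.03, with FDRs of 0.438 and 0.970.

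Among the conjugating enzymes, GSTM3 (ENSBTAG00000001842), a glutathione transferase of the mu class, ran from 19.8 to 295 CPM at PreP with a median of 78.7, from 4.59 to 99.7 at PP1 with a median of 24.6, and from 1.62 to 193 at PP2 with a median of 14.7. The groups overlapped, with 4 of 10 PP1 and 7 of 9 PP2 libraries below every PreP library. GSTM3 fell by 1.92 on the log2 scale at PP1 (SE 0.511, 3.78-fold lower, FDR 0.0298, exact permutation p = 0.0036). At PP2 the log2 fold change was -1.64 (SE 0.669, FDR 0.151, exact permutation p = 0.0057).

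The PP2 value of GSTM3 turned on 1 library. The PP2 library of B5090, which carried the muscle genes, had 193 CPM, where the next PP2 library had 24.5. Without it the log2 fold change was -2.85 and the FDR 0.00236. The PP1 call passed in 5 of 11 fits that left out a cow, with FDRs from 0.000459 without B5169 to 0.110 without B5064, and with cow as a block the FDR was 0.182 at PP1 and 0.0492 at PP2. Reads of GSTM3 can be shared with other mu class genes, which are near copies of each other.

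GSTT4 and GSTZ1 had log2 fold changes between -0.41 and -0.04 with FDRs from 0.376 upward. SULT1B1, a sulfotransferase of phenols and thyroid hormones, had medians of 3.60, 4.94 and 3.35 CPM and log2 fold changes of 0.49 (FDR 0.277) and 0.10 (FDR 0.919). SULT1C3 and UGT3A2 had a median of 0 reads at each time point.

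Of the P450 enzymes outside sterol synthesis, CYP20A1, a P450 with no settled substrate, ran from 24.3 to 39.6 CPM at PreP with a median of 31.1, from 29.9 to 45.7 at PP1 with a median of 39.4, and from 7.91 to 43.0 at PP2 with a median of 33.4. At PP1, 5 of 10 libraries were above every PreP library and the lowest was B5169. The log2 fold change was 0.34 at PP1 (SE 0.109, FDR 0.0661, exact permutation p = 0.0028), and 0.38 (FDR 0.0120) without the PP1 library of that cow. With DESeq2 on all libraries it was 0.32 at PP1 (adjusted p 0.0214). At PP2 the edgeR value was -0.12 (SE 0.251, FDR 0.854). CYP1A2, which acts on foreign compounds, had a median of 0 reads, and CYP24A1, which breaks down vitamin D, had medians of 2, 1 and 2 reads.

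AKR1A1, an aldehyde reductase, and ALDH16A1, an aldehyde dehydrogenase, had medians of 61.8, 71.1 and 55.1 CPM and of 68.3, 53.6 and 58.4 CPM. Their log2 fold changes lay between -0.20 and 0.04, and both had FDRs from 0.472 upward. AKR1B10 had 4 reads over the 9 PreP libraries, 3 of them in cow B4886, and 0 reads in all PP1 and PP2 libraries, so no fold change is given. PTGER2, a receptor of prostaglandin E, had medians of 0.116, 0.339 and 0.221 CPM, which are 2, 6.5 and 5 reads. Its log2 fold change was 1.26 at PP1 (SE 0.618, FDR 0.211) and 1.43 at PP2 (SE 0.652, FDR 0.206), with exact permutation p-values of 0.041 and 0.025.

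The members matched by letters alone had 0 of 5 past the FDR at either time. GPATCH2, a nuclear protein with a G-patch, had the smallest unadjusted edgeR p among them. It ran from 1.10 to 6.59 CPM at PreP with a median of 4.19, from 3.21 to 6.45 at PP1 with a median of 5.19, and from 1.32 to 11.0 at PP2 with a median of 6.30. The groups overlapped, and the log2 fold changes were 0.33 (FDR 0.436) and 0.58 (FDR 0.382), with exact permutation p-values of 0.14 and 0.29.

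**Figure D3:**
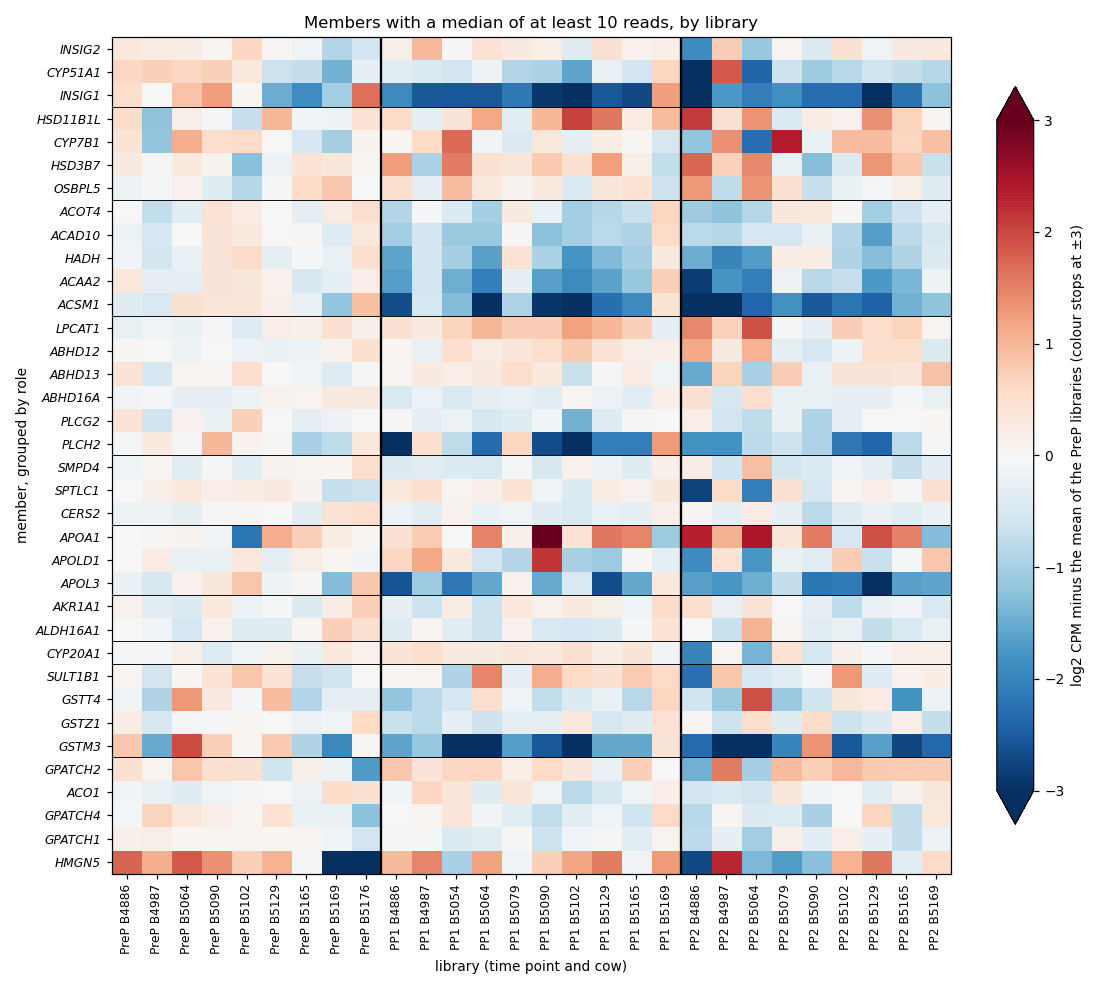
Log2 CPM minus the mean of the PreP libraries (colour) for the 36 members with a median of at least 10 reads (y axis, by role) in each of the 28 libraries (x axis, by time point and cow). Blue blocks at PP1 and PP2 lie over INSIG1, ACSM1, ACAA2, HADH, ACAD10, APOL3 and GSTM3, and the PP1 column of cow B5169 is pale or red at these 7.

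Between PP1 and PP2, no member passed the edgeR test. Of 42 members tested, 0 passed the FDR and 0 had an unadjusted p under 0.05, where 0% and 5.6% of all genes did. DESeq2 also gave 0. By the exact permutation test, which was not adjusted over genes, CYP20A1 had a p of 0.0068, with a log2 fold change of -0.47 (edgeR FDR 0.929) and 7 of 9 cows lower at PP2. The log2 fold changes of the members ran from -0.84 to 1.61, the highest from SULT1C3 with 9 reads in 1 library. That of ACSM1 was -0.84 (SE 0.567, FDR 0.970) and that of INSIG1 -0.78 (SE 0.532, FDR 0.970). The falls of these 2 genes at PP1 and PP2 are therefore not shown to differ in size, and for INSIG1 the PP2 median was the higher one, 37.0 against 29.7 CPM.

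The standing of the calls against single cows differed between the members. At PP2, INSIG1, ACSM1 and APOL3 passed the FDR without any of the 10 cows, ACAD10 in 5 of 10, LPCAT1 in 3 of 10, ACAA2 in 2 of 10 and GSTM3 in 1 of 10. At PP1, LPCAT1 passed in 9 of 11 and GSTM3 in 5 of 11. INSIG1, ACSM1 and ACAA2 passed at PP1 in 1 of 11, without B5169, and APOL3 and ACAD10 in 2 of 11. Without both libraries of B5169, 6 members were DEGs at PP1, with ACAA2, ACSM1, APOL3, GSTM3 and INSIG1 lower and APOA1 higher, where 9.5% of all genes tested were DEGs in that fit.

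**Figure D4:**
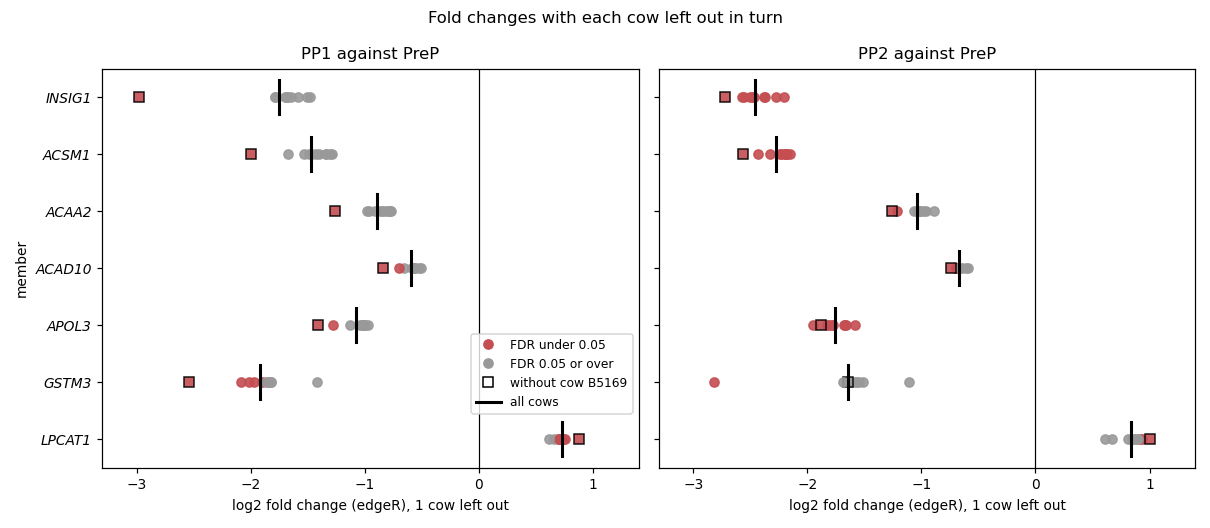
Log2 fold change (edgeR, x axis) of the 7 members with an FDR under 0.05 in any comparison (y axis) with each cow left out in turn, at PP1 and PP2 against PreP, where squares are the fits without cow B5169 and black bars the fits with all cows. At PP1 the square is the fit furthest left for INSIG1, ACSM1, ACAA2, ACAD10, APOL3 and GSTM3, and furthest right for LPCAT1. At PP2 the fits of INSIG1, ACSM1 and APOL3 all pass the FDR.

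Beside the members, 58 genes of the same pathways were counted from lists chosen by function. Of these, 53 were tested at PP1 and 54 at PP2. At PP1, 2 were upregulated DEGs and 0 downregulated, where 3.34% and 0.693% of all genes were. At PP2, 4 were upregulated and 5 downregulated, where 3.52% and 1.95% of all genes were. The median log2 fold change was -0.07 at PP1 and -0.13 at PP2.

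The PP1 count of these genes rested on the PP1 library of B5169, whose summed level of the 11 glycerolipid, phospholipid and lipase genes was 1060 CPM where the next PP1 library had 380. Without it, 3 were upregulated DEGs at PP1 (ACBD7, PLPP2 and PLTP) and 7 downregulated (BDH1, CHPT1, CRAT, FFAR4, PCK1, PCYT2 and SLC10A1), where 5.15% and 3.69% of all genes were. Without both libraries of that cow, 5 were upregulated and 7 downregulated, where 5.5% and 3.99% of all genes were. Without the PP2 library of B5090, whose summed level of the 12 fatty acid, carnitine and ketone genes was 1170 CPM where the next had 490, 4 were upregulated and 6 downregulated at PP2, with CRAT added, where 3.55% and 2.56% of all genes were.

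The downregulated DEGs of these lists at PP2 were BDH1, PCK1, FFAR4, PCYT2 and CHPT1. BDH1, the mitochondrial dehydrogenase of ketone bodies, had a log2 fold change of -4.42 (SE 0.913, FDR 0.00842), with medians of 19.8 CPM at PreP and 0.927 at PP2. PCYT2 and CHPT1, enzymes of the pathway that makes phosphatidylethanolamine and phosphatidylcholine, had log2 fold changes of -2.47 (FDR 0.00137) and -1.79 (FDR 0.0120). PCK1, which supplies glycerol phosphate for triglyceride in adipocytes, was at -2.96 (FDR 0.00238), and FFAR4, a fatty acid receptor, at -2.48 (FDR 0.0377).

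The upregulated ones at PP2 were PLTP, which moves phospholipids between lipoproteins, at 1.35 (FDR 0.0251), ANGPTL4, an inhibitor of lipoprotein lipase, at 1.18 (FDR 0.0237), PLPP2, a lipid phosphatase, at 1.20 (FDR 0.0425), and SLCO2A1, a prostaglandin transporter, at 1.27 (FDR 0.0306). PLTP was also upregulated at PP1, at 1.31 (FDR 0.0114), with ACBD7, an acyl-CoA binding protein, at 2.50 (FDR 0.0124). CRAT, which joins acetyl groups to carnitine, passed the FDR as lower at PP1, at -0.87 (FDR 0.0440), and ECHDC2, an enoyl-CoA hydratase family member, as lower at PP2, at -0.83 (FDR 0.0298).

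Of 6 other retinoid genes, 0 were called in any comparison. RBP4, the carrier of retinol in blood, was the most abundant of them, with medians of 1320, 779 and 575 CPM at PreP, PP1 and PP2. Its log2 fold change from PreP was -0.87 at PP1 (SE 0.456, FDR 0.241) and -1.0 at PP2 (FDR 0.218, unadjusted edgeR p = 0.044).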

How the data were processed

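RNA-seq was made from subcutaneous AT, and the authors mapped reads to bosTau7 with HISAT2 2.1.0 and assigned them to Ensembl genes with HTSeq 0.6.1. The deposited values are raw read counts, neither normalized nor filtered by the authors; strandedness, reads with several matches and the annotation release were not given in the sources used here. The labels gave the cow and time point of all 28 columns, and libraries of 1 time point come from different cows. The authors' own columns of fold changes were not used. The study's methods give 12 cows, and the labelled libraries used here come from 11.

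Symbols came from the study's supplementary list of gene IDs as available here, which is cut short at 1995 IDs, so the members do not cover the whole pathways. Genome coordinates and sequences were not used here. The members, roles and other lists were chosen with earlier results of these data known.

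In R 4.3.3, edgeR 4.0.16 (TMM, quasi-likelihood test) was fitted to each pair of time points alone, on genes that reached 3 reads in 1 or more libraries, with Benjamini-Hochberg adjustment over all of them. DEGs passed an FDR of 0.05 with a log2 fold change beyond 1 in either direction. The SE was not given by edgeR and was derived as the absolute log2 fold change divided by the square root of the F statistic. CPM were scaled by TMM over the 28 libraries, and log2 CPM had a prior count of 1. Single members were also tested with two-sided exact permutation tests on mean log2 CPM over all divisions of the libraries, 92378 for PP1 and 48620 for PP2 against PreP. Members given in full were those with an FDR under 0.05 in any comparison and, in each other role group, the member with the smallest unadjusted edgeR p against PreP. HADH, APOA1, PLCH2, HSD3B7 and the other members outside this rule that have values were chosen after their values were seen or to account for their group.

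The cow IDs in the labels pair the libraries. The mean correlation of deviations from the group means was 0.0987 (-0.164 to 0.335 over 8 cows) for PP1 and 0.0163 (-0.276 to 0.263 over 8 cows) for PP2 with PreP. Alternatives were filterByExpr, no filter, RLE size factors, DESeq2 1.42.0, 1 fit of all time points, cow as a block, and each cow left out. Leaving out the PP2 library of B5090 or the PP1 library of B5169 was chosen after seeing the data. Counting depth was 15293154 to 22284884 reads per library, and 0 pairs of libraries were identical.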

Additional observations from a re-analysis of the deposited data

Results flagged for a closer look

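Libraries far from the others of their time point were looked for among the members given in full, with Dixon's test in groups of 9 or 10. Of 33 groups of the 11 members with a median of at least 10 reads, 4 had one, where chance gives about 1.65. The other 2 are in AKR1B10 and PTGER2, whose few reads make that chance share void. Values here are log2 CPM. No explanation was tested for any of them.

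Cow B5169 had 3 of these 6, all at PP1. INSIG1 was at 8.70 in that library, from 6751 reads, and the next highest PP1 library was at 5.52. CYP20A1 was at 4.91, below the nearest at 5.22. PTGER2 was at -4.26, which is 0 reads, with the nearest at -2.19. Whether the PreP and PP1 libraries of this cow were exchanged was not tested, and its labels were kept as given.

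ACSM1 was at 2.66 in the PP1 library of cow B5102, from 96 reads, with the nearest at 6.02. That library also had the lowest summed adipocyte markers at PP1, 349 CPM. ACAD10 was at 4.23 in the PP2 library of cow B5129, with the nearest at 5.01. AKR1B10 was at -2.16 in the PreP library of cow B4886, which is 3 reads, with the nearest at -3.35.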

How the results depend on the processing

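The number of members that were DEGs at PP1 moved with the processing. It was 1 in the fit described, 4 with DESeq2, 0 with all 3 time points in 1 fit, 0 with cow as a replicate block, 2 with no threshold on the fold change, and 6 without the PP1 library of B5169. The share of all genes called moved with it, from 4.03% in the fit described to 5.72%, 1.64%, 0.256%, 6.32% and 8.84% in the same order. With a cow left out it ran from 0 to 6, with 6 without B5169, 2 without B5079 and 0 without B4886, B5054, B5064, B5090, B5102 or B5129, where the share of all genes called was 9.5%, 4.74% and 1.61% to 2.63%. Over all genes, cow as a block gave 47 DEGs at PP1 in place of 744 and 401 at PP2 in place of 1015. At PP2 the number of members was 4, and between 3 and 6 under every alternative run, with INSIG1, ACSM1 and APOL3 among them each time. The share of all genes was 5.47% in the fit described, 2.17% with cow as a block (5 members, with GSTM3 added), 7% with DESeq2 (6 members), and from 2.49% without B5129 (3 members) to 7.22% without B5169 (6 members). APOA1 was an upregulated DEG at PP2 with DESeq2 and without B5169, and PLCH2 a downregulated one with filterByExpr, with DESeq2, without B5079 and without B5169. Between PP2 and PP1 it was 0 under every alternative, where all genes gave 176 of 18905 (0.931%) with all 3 time points in 1 fit, 1 with cow as a block and 0 otherwise. With all 3 time points in 1 fit, GSTM3 and LPCAT1 missed the FDR at PP1 (0.103 each) and ACAA2 at PP2 (0.0514), while LPCAT1 passed at PP2 (0.0319). Among single members, the log2 fold change of CYP20A1 at PP2 ran from -0.22 to 0.01 with a cow left out and changed sign without B5064. With cow as a block, ACAD10 at PP2 and LPCAT1 and GSTM3 at PP1 missed the FDR, GSTM3 passed at PP2, and no other call of a member given in full changed. The cause of these moves was not tested. For the 7 members with a median under 10 reads, depth limits what could be seen.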
